A study of Mus musculus with 12 samples.

Results

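Expression of 9 genes, out of 22053 genes in the deposited table, was examined in whole kidneys of 12 mice. All but Khk, which phosphorylates fructose, serve to carry glucose back across the kidney tubule or to make it anew. The 9 genes were chosen by symbol for their known roles: the apical carriers Slc5a2 and Slc5a1, the basolateral carrier Slc2a2, the gluconeogenic enzymes Pcx, Pck1 and Fbp1, the glucose-6-phosphatase pair G6pc and Slc37a4, and the fructose kinase Khk. Each symbol matched 1 row, and all 9 genes passed the filter on low values, which left 13148 genes to test. The mice were C57BL/6 wild type in 3 groups of 4. Chronic kidney disease (CKD) had been induced by a diet with 0.2% adenine, given from 8 to 16 weeks of age, and the control group ate that diet without adenine. Control and CKD mice received weekly injections of PBS into the peritoneum. Mice of the CKD+Fe group ate adenine as well and received weekly iron dextran at 0.5 g/kg by the same route. The labels give 1 library per mouse, so p-values measure the spread between these mice. The diet injures tubules and interstitium across the kidney, so it is not a lesion of a single cell type.

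The proximal tubule takes back nearly all filtered glucose. SGLT2, encoded by Slc5a2, carries the bulk of it in the early segment, SGLT1, encoded by Slc5a1, recovers the remainder further down, and GLUT2, encoded by Slc2a2, lets it out into the blood. The same cells make glucose from lactate, glutamine and other precursors: pyruvate carboxylase and cytosolic phosphoenolpyruvate carboxykinase open the path, fructose-1,6-bisphosphatase serves a later step, and glucose-6-phosphatase together with its transporter releases free glucose.

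Markers of kidney tubules were abundant in these libraries. The proximal tubule markers Lrp2 (56.8 to 129 FPKM in controls) and Slc34a1 (1037 to 1918 FPKM) and the thick limb marker Umod were present in every group. FPKM (reads per transcript length and per library size) carry no read counts, so counting error could not be given. The steps between the lowest values put the depth of 10 libraries at 0.678 to 0.889 of that of control mouse 1, while CKD+Fe mouse 3 gave peaks of nearly equal height at 0.451 and 0.895. Control mouse 3, CKD mouse 3 and CKD+Fe mouse 1 stood farthest from their groups, with 595, 805 and 442 genes differing by 2-fold or more from their group mates. A single proximal tubule transcript, Kap, made up 10.6% to 12.7% of all FPKM in controls and 0.188% to 1.70% in the other groups. Fold changes were taken on log2(FPKM + 1), which understates the change of low genes. The median gene was 0.50 higher on this scale in CKD than in control, and rescaling by the median of ratios brought that median to -0.026, so for the 9 genes, and for the counts over marker and pathway lists, both scales are given where the call or count depends on it.

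The genes lie on 8 chromosomes of the mouse genome, build GRCm38, with the extents of the deposited table. Slc5a2 spans chr7:128265657-128272430, Slc5a1 spans chr5:33104219-33162870 and Slc2a2 spans chr3:28697903-28731359. Among the gluconeogenic genes, Pcx spans chr19:4510472-4621752, Pck1 chr2:173153048-173159273 and Fbp1 chr13:62864753-62888282. G6pc lies at chr11:101367561-101377903, Slc37a4 at chr9:44398176-44402963, and Khk, on the same chromosome as Slc5a1, at chr5:30921431-30931248.

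Upstream sequences of 3 of the genes are shown because Pck1 and Fbp1 moved with most of the group and Slc5a1 did not. They were read from the RefSeq promoter table (GRCm38.p6), which held 11 promoters for 8 of the 9 genes and none for Slc5a2. Each promoter has 250 bases before and 50 after the annotated start. Capitals mark matches, on either strand, to the cyclic AMP response element TGACGTCA or TTACGTCA or its core CGTCA, the HNF4 element CAAAGTCCA or its core AGTCCA, and the TATA box TATAAA. The stretches end before the first annotated base of each gene. They are chr2:173152928-173153047 (+ strand) for Pck1, chr13:62888383-62888482 (- strand) for Fbp1 and chr5:33104099-33104218 (+ strand) for Slc5a1.
Pck1: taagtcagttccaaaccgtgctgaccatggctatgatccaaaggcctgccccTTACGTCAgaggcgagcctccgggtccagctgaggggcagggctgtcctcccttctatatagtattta
Fbp1: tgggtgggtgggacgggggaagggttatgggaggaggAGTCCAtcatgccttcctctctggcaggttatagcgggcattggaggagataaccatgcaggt
Slc5a1: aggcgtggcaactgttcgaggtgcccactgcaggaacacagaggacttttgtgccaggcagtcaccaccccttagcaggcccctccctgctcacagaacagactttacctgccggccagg

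Pck1 held TTACGTCA at position -93 from the RefSeq start, and its last 5 bases also match the core CGTCA. TTACGTCA stood in 0.499%, TGACGTCA in 1.79% and the core in 20.8% of all 32851 promoters listed. Fbp1 held AGTCCA at -163, a match that stood in 14.1% of promoters. Outside the printed stretches, G6pc had AGTCCA at -76 and 26 and TATAAA at -29, Khk had CGTCA at -74, and the promoters of Slc37a4 had CGTCA or TATAAA. CAAAGTCCA stood in 0.475% and the TATA box in 13.6% of promoters. None of these letters occurred in the windows of Slc5a1, Slc2a2 or Pcx, which says only that they are not in those 300 bases. Of these genes, Slc2a2 and Pcx were lower in CKD, as were Pck1 and Fbp1.

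The first comparison asked how CKD alone altered the genes. In CKD 8 of the 9 genes were lower than in control, at 25.8% to 47.8% of the control mean, and the 8 groups of CKD values lay wholly below the control values. Fbp1, Khk and Pcx fell by the largest amounts, to 26.3%, 26.2% and 25.8% of control. Slc5a1 was called higher on the deposited scale (log2 fold change 0.40) and lay below control after rescaling (-0.20, not called). As background, 13.3% of all genes tested were called lower and 54.6% higher in this comparison, and 10.5% had CKD values wholly below control. The median over the 9 genes was -1.70, against 0.50 over all genes tested. In bulk tissue, fewer cells of a type and less RNA per cell cannot be told apart.

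**Figure D1:**
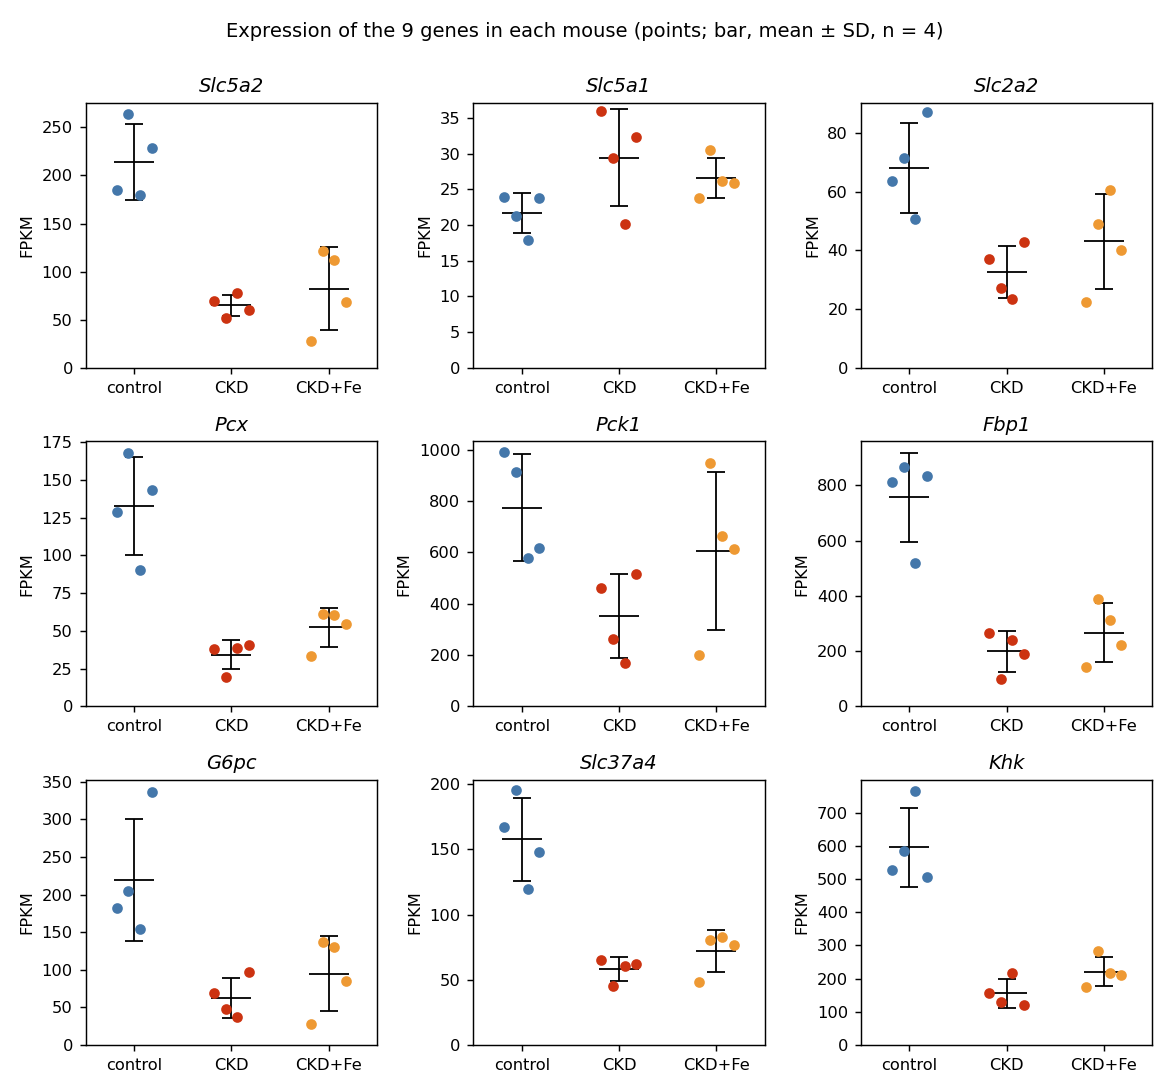
FPKM of the 9 genes (y axis, linear from 0, 1 panel per gene) in control, CKD and CKD+Fe mice; points are mice, and bars are the mean ± SD (n = 4). The CKD points lie below every control point in 8 panels, and in the Slc5a1 panel the groups overlap.

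Slc5a2, which encodes the main apical glucose carrier, measured 185, 264, 179.7 and 228 FPKM in control mice 1 to 4. The CKD mice had 69.5, 52.1, 77.4 and 60.6 FPKM. The CKD+Fe mice had 27.9, 122, 112 and 68.0 FPKM. All 8 mice on adenine were below the lowest control, and the CKD+Fe mice were the most spread, from below the lowest to above the highest CKD mouse. The mean was 214 ± 39.6 FPKM (SD, n = 4) in control and 64.9 ± 10.96 in CKD, 30.3% of control. The log2 fold change was -1.70 (SE 0.35, limma adjusted p = 0.000799).

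Slc5a1, the high-affinity carrier of the later tubule, measured 23.9, 21.2, 17.9 and 23.8 FPKM in control. The CKD mice had 35.9, 29.4, 20.1 and 32.3 FPKM. With iron the values were 23.8, 30.5, 26.2 and 25.9 FPKM. In CKD 3 of the 4 mice were above every control and CKD mouse 3 was inside the control range, so the groups overlapped. The difference of 0.40 (SE 0.17) passed narrowly with limma (adjusted p = 0.0476), not in the exact permutation test (two-sided p = 0.114), and turned to -0.20 after median-of-ratios rescaling (adjusted p = 0.336). Quantile normalization gave 0.10 with an adjusted p of 0.675. In 6 of 8 fits that left out 1 mouse the call was lost: CKD mouse 1, 2 or 4 and control mouse 1, 2 or 3 (0.30 to 0.45). No direction is therefore given for the level of Slc5a1 itself.

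Slc2a2, the basolateral exit carrier, had 63.5, 71.4, 50.6 and 87.0 FPKM in control mice. Its values in CKD were 37.1, 27.0, 23.4 and 42.8 FPKM. With CKD+Fe they were 22.5, 49.0, 60.7 and 40.2 FPKM. Every CKD mouse was below every control, whereas CKD+Fe mouse 3 reached the control range. Between CKD and control the log2 fold change was -1.05 (SE 0.28, adjusted p = 0.00409), to 47.8% of control.

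Pcx, the mitochondrial enzyme that turns pyruvate into oxaloacetate, measured 129, 168, 90.3 and 143 FPKM in control. CKD mice had 37.8, 19.8, 38.6 and 40.8 FPKM. CKD+Fe mice had 33.3, 61.2, 60.5 and 54.4 FPKM. No mouse on adenine reached the lowest control, and CKD mouse 2 was well below the other 3. The log2 fold change was -1.94 (SE 0.26, adjusted p = 2.6e-05).

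Pck1, the cytosolic carboxykinase whose promoter holds the TTACGTCA match, was among the most abundant transcripts of the control kidney (rank 86 of 13148 by mean FPKM). It measured 992, 912, 578 and 616 FPKM in control. The CKD mice had 461, 262, 169 and 516 FPKM. The CKD+Fe mice had 200.3, 948, 663 and 612 FPKM. The highest CKD mouse was below the lowest control, and CKD+Fe values ran from within the CKD range into the control range. The difference in CKD was -1.23 (SE 0.44, adjusted p = 0.0235). Its call was lost on leaving out CKD mouse 2 (-1.13) or 3 (-0.92) or control mouse 1 (-1.10) or 2 (-1.14), and with quantile normalization (-0.91, adjusted p = 0.126).

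Fbp1, encoding the bisphosphatase, had 811, 865, 518 and 836 FPKM in control mice. CKD values were 267, 98.6, 239 and 191 FPKM. CKD+Fe values were 143, 388, 313 and 221 FPKM. Control mouse 3 was the low one of its group and still stood above all 8 mice on adenine. Fbp1 fell by 1.99 on the log2 scale (SE 0.34, adjusted p = 0.000171), the largest fall of the 9 genes on the deposited scale.

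G6pc, the catalytic subunit of glucose-6-phosphatase, measured 182, 205, 154 and 337 FPKM in control. It measured 69.5, 47.4, 37.3 and 96.8 FPKM in CKD. In CKD+Fe it was at 28.0, 136, 129.96 and 85.4 FPKM. No mouse on adenine was inside the control range, and control mouse 4 was far above the other controls. The log2 fold change in CKD was -1.82 (SE 0.44, adjusted p = 0.00244).

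Slc37a4, which brings glucose 6-phosphate to that enzyme in the endoplasmic reticulum, had 167, 196, 119.7 and 148 FPKM in control. CKD mice had 65.0, 45.0, 60.8 and 61.8 FPKM. CKD+Fe mice had 48.4, 80.7, 83.1 and 76.3 FPKM. CKD values were close together below the control range, and 3 of 4 CKD+Fe mice were above every CKD mouse. The log2 fold change was -1.41 (SE 0.20, adjusted p = 3.64e-05).

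Khk, ketohexokinase, which phosphorylates fructose, measured 527, 584, 766 and 505 FPKM in control. CKD mice had 156, 129.8, 217 and 121 FPKM. CKD+Fe mice had 173, 282, 217 and 212 FPKM. No mouse on adenine reached the lowest control, and control mouse 3, the lowest control for the other 8 genes, was the highest for Khk. Its log2 fold change of -1.94 (SE 0.21) had the lowest adjusted p of the 9 genes (4.3e-06).

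Rescaling by the median of ratios left the 8 lower genes lower and deepened each of them, with log2 fold changes from -1.66 for Slc2a2 to -2.61 for Fbp1. Under that scale 31% of all genes tested were called lower and 27.2% higher. Leaving out control mouse 3, CKD mouse 3 and CKD+Fe mouse 1 together, an alternative chosen after seeing the data, kept all 9 calls of the deposited scale. The exact two-sided permutation p of each of the 8 lower genes was 0.0286, the smallest that 4 mice against 4 allow.

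**Figure D2:**
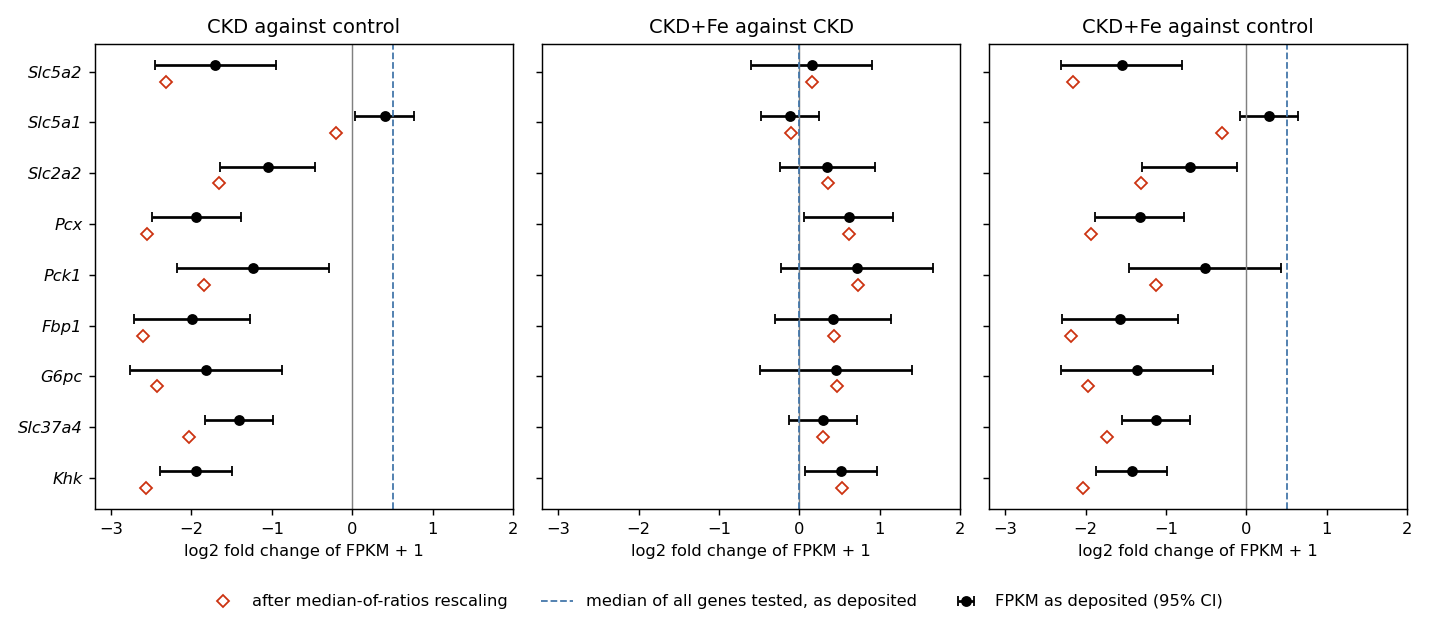
Log2 fold change of FPKM + 1 (x axis) of each gene (y axis) in the 3 comparisons; black points with 95% confidence intervals are the deposited values, open diamonds the values after rescaling, and the dashed line the median of all genes tested. In CKD against control 8 genes lie left of 0 on both scales, while Slc5a1 changes side.

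The second comparison asked what iron dextran changed in CKD. None of the 9 genes passed limma's test between CKD+Fe and CKD (adjusted p 0.774 to 0.993), and all 9 had overlapping groups, where 1.35% of all genes tested lay wholly above and 1.09% wholly below CKD. Across the transcriptome 0.00761% of genes were called, that is 1 gene, higher with iron. Of the 9 differences 8 were positive, from 0.15 for Slc5a2 to 0.72 for Pck1, with Slc5a1 at -0.12. Their median was 0.42, against -0.000503 over all genes tested. Markers of the proximal tubule (12 genes) had a median of 0.43, near that of the 9 genes. The median was 0.56 over 6 collecting duct markers and -0.67 over 4 injured tubule markers. An unadjusted p under 0.05 was reached by 2 genes, Khk (0.52, SE 0.21, adjusted p = 0.774) and Pcx (0.61, SE 0.26, adjusted p = 0.786), where 3.28% of all genes did so in the higher direction. The 95% intervals were wide: the difference of Pck1 ran from -0.23 to 1.66 and that of G6pc from -0.49 to 1.40.

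CKD+Fe mouse 1 was the lowest of its group for all 9 genes, and CKD+Fe mouse 2 the highest for 7 of them. Without mouse 1 the difference was 1.18 for Pck1 (adjusted p = 0.228), 0.95 for G6pc (adjusted p = 0.283), 0.81 for Pcx (adjusted p = 0.234) and 0.59 for Slc5a2 (adjusted p = 0.306), so these values moved and still no gene passed. Leaving out CKD+Fe mouse 2 or 3 instead turned Slc5a2 to -0.10 or -0.06. Khk passed with mice weighted by their distance from the fit (0.67, adjusted p = 0.043, with 1.22% of all genes called) and without the farthest mouse of each group (0.80, adjusted p = 0.0442, with 0.639% of all genes called). The other 8 genes were called in neither.

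The third comparison set the iron-treated CKD mice against control. Against control 7 of the 9 genes were lower in CKD+Fe than in control, where 11% of all genes tested were called lower. Of these, 6 had groups that did not overlap, against 9.85% of all genes tested, and Slc2a2 overlapped by CKD+Fe mouse 3. On the log2 scale the largest falls were those of Fbp1 (1.57, to 35.2% of control, limma adjusted p = 0.00113) and Slc5a2 (1.55, to 38.5%, limma adjusted p = 0.00173). In fits that left out 1 mouse the log2 fold change of Slc5a2 ran from -1.81 to -1.11. By the ratio of means Khk, at 37.1% of control, was lower than Slc5a2. Pcx was at 39.5%, G6pc at 43.2% and Slc37a4 at 45.7% of control.

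Slc2a2 was at 63.2% of control (-0.71, adjusted p = 0.0361), a call lost with quantile normalization, without the filter on low values and in 5 of the 8 fits without 1 mouse (CKD+Fe mouse 1 or 4, control mouse 1, 2 or 4), where it ranged from -0.43 to -0.73. Without CKD+Fe mouse 1 it was -0.43. Pck1 was at 78.3% of control and did not pass (-0.51, SE 0.44, interval -1.46 to 0.43, adjusted p = 0.315). After rescaling Pck1 was at -1.12 (adjusted p = 0.0502). Slc5a1 differed by 0.29 (adjusted p = 0.149), and by -0.30 after rescaling. Both comparisons with control used the same 4 control mice.

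**Figure D3:**
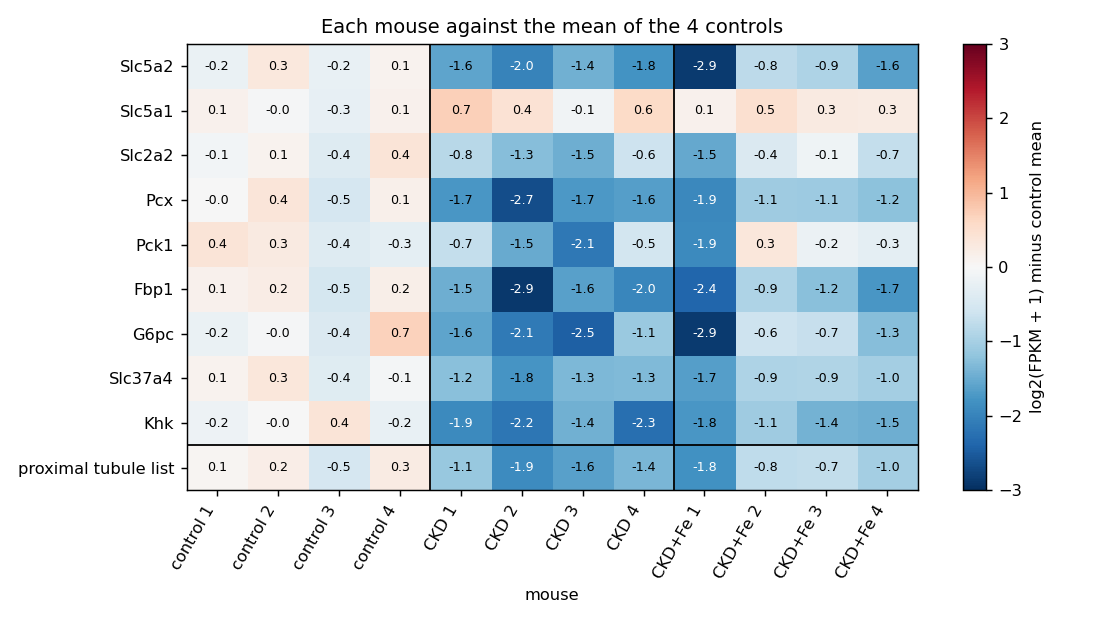
Log2(FPKM + 1) of each gene, and the mean of 12 proximal tubule markers (bottom row), in each mouse (columns) minus the mean of the 4 controls, with blue for lower and red for higher. The bottom row is negative in all 8 mice on adenine (-1.89 to -0.74), CKD+Fe mouse 1 is the darkest of its group, and the Slc5a1 row stays between -0.25 and 0.71.

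Plain ratios of FPKM within a mouse, as printed here, do not depend on scaling between mice. The differences and tests used log2 ratios of FPKM + 1, which depend on scaling only through the added 1. In the 3 comparisons 7 pairs were compared (21 tests), of which 6 pairs are given here. The ratio of Slc5a2 to Slc5a1, the early over the late apical carrier, was 7.73, 12.4, 10.03 and 9.58 in control. In CKD it was 1.94, 1.77, 3.84 and 1.87, and in CKD+Fe 1.17, 3.99, 4.26 and 2.62. Every mouse on adenine was below every control, the means being 9.94 ± 1.94 for control, 2.36 ± 0.994 for CKD and 3.01 ± 1.42 for CKD+Fe (SD, n = 4). The log2 ratio differed from control by -2.105 in CKD and by -1.84 in CKD+Fe (exact permutation p = 0.0286 for each, Benjamini-Hochberg adjusted p = 0.15, the smallest the 21 tests gave). Between CKD+Fe and CKD it differed by 0.27 (exact permutation p = 0.657). In CKD against control the median log2 fold change was -4.25 over 4 late-segment markers and -0.56 over 4 early-segment markers. What the ratio of these carriers says about the segments was not tested.

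The other pairs differed less. Slc5a2 over Slc2a2 was 0.84 lower on the log2 scale in CKD+Fe than in control, with groups apart (exact permutation p = 0.0286, adjusted p = 0.15), and 0.65 lower in CKD with overlap (exact permutation p = 0.0857). Fbp1 over Pck1 was 1.06 lower in CKD+Fe than in control, again with groups apart (exact permutation p = 0.0286, adjusted p = 0.15), the mean ratio being 1.01 for control, 0.685 for CKD and 0.489 for CKD+Fe. Pck1 over G6pc averaged 3.87 for control, 5.50 for CKD and 6.59 for CKD+Fe, with overlap in both comparisons with control (exact permutation p = 0.114 and 0.0571). The ratios of G6pc to Slc37a4 and of Pcx to Pck1 overlapped in all 3 comparisons.

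**Figure D4:**
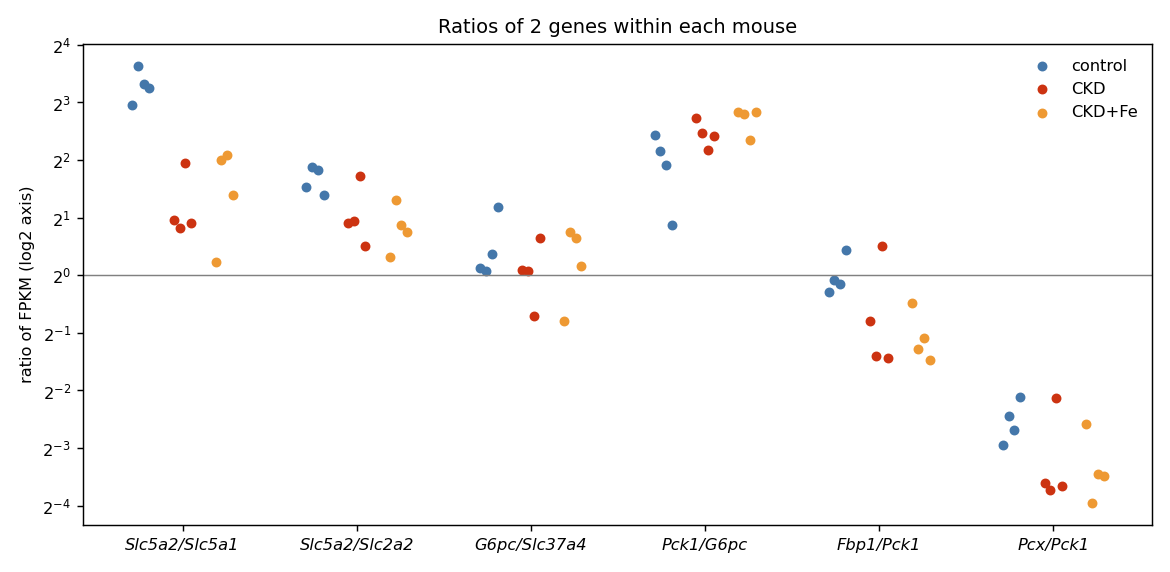
Ratio of the FPKM of 2 genes within each mouse (y axis, log2 scale) for 6 pairs, with control in blue, CKD in red and CKD+Fe in orange. In Slc5a2/Slc5a1 the 8 mice on adenine (1.17 to 4.26) lie below the controls (7.73 to 12.4), and in G6pc/Slc37a4 the groups overlap.

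Markers of the proximal tubule moved with the genes. Of 12 markers 10 were called lower in CKD and 9 in CKD+Fe against control (11 and 10 after rescaling), and their summed level was 3688 to 6015 FPKM for control, 972 to 1790 for CKD and 1040 to 2088 for CKD+Fe. For Slc34a1, the phosphate carrier, the log2 difference of CKD from control was -2.54 (adjusted p = 9.25e-06), and Slc4a4, the bicarbonate carrier, was at -0.0029 (adjusted p = 0.995). All 4 late-segment markers were lower in CKD, led by Slc7a13 (-4.49, adjusted p = 1.74e-05), as against 2 of 4 early-segment markers. All macrophage (5 of 5) and injured tubule (4 of 4) markers were higher in CKD on both scales, as were 4 of 4 fibroblast markers on the deposited scale and 3 after rescaling, where Acta2 was not called (0.54, adjusted p = 0.0795). Havcr1, the injury molecule KIM-1, was at 1.22 to 2.75 FPKM in control and 107 to 317 in CKD. In CKD 1 of 6 thick limb and distal markers was lower and 1 higher, 3 of 6 collecting duct markers were lower, 1 of 4 podocyte markers was higher and 1 of 4 endothelial markers was lower. After rescaling 1 thick limb and distal, 5 collecting duct and 3 endothelial markers were lower, and none of these lists held a marker called higher. Of all genes tested, 13.3% were called lower and 54.6% higher in CKD (31% and 27.2% after rescaling). In CKD+Fe against control 11% were called lower (29.3% after rescaling). The collecting duct water channel Aqp2 was at 964 FPKM in control mouse 3 against 153 FPKM in the lowest control. The part of these shifts in the levels of the 9 genes was not tested.

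Set against the mean of the 12 proximal tubule markers in the same mouse, a comparison added after seeing the data (27 tests), Slc5a1 stood 1.91 higher in CKD and 1.37 higher in CKD+Fe than in control on the log2 scale (exact permutation p = 0.0286 for each, adjusted p = 0.129), with no overlap. Slc2a2 was 0.46 and 0.37 higher, also with groups apart (exact permutation p = 0.0286, adjusted p = 0.129). Fbp1 was 0.49 lower and Pcx 0.25 lower in CKD+Fe, with groups apart, while in CKD both overlapped control (differences of -0.48 and -0.43). Slc5a2 (-0.19), G6pc (-0.31), Slc37a4 (0.10), Khk (-0.43) and Pck1 (0.28) overlapped control in CKD. Between CKD+Fe and CKD all 9 genes overlapped on this measure, with differences from -0.54 for Slc5a1 to 0.29 for Pck1. Hepatocytes and adipocytes also hold gluconeogenic transcripts. The 6 hepatocyte markers summed to 361 to 884 FPKM in control, 166.5 to 523 in CKD and 146 to 782 in CKD+Fe. Of this sum Ttr alone made 336 to 843 FPKM in control. In CKD 2 of the 5 tested were lower and 1 higher, where 13.3% of all genes tested were lower and 54.6% higher. Alb, the hepatocyte albumin, lay between 0.570 and 8.37 FPKM, Cps1 at most at 0.0894 FPKM, and Adipoq, an adipocyte hormone whose list of 5 had no gene past the filter, was at most 1.27 FPKM in 11 mice and 11.3 FPKM in CKD+Fe mouse 4. Cfd, of the same list, was at 96.2 FPKM in CKD+Fe mouse 4, 10.5 in CKD+Fe mouse 3 and 10.2 in control mouse 2, and at most 0.823 in the other 9 mice. Pck1 was at 612 FPKM in CKD+Fe mouse 4, 663 in CKD+Fe mouse 3 and 912 in control mouse 2. The part of hepatocytes or adipocytes in the levels of the 9 genes was not tested.

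Of 70 further genes of the pathway, 68 were tested, and 31 were lower, 15 higher and 22 not called in CKD against control. After rescaling 43 were lower and 6 higher. Of all genes tested, 13.3% were called lower and 54.6% higher on the deposited scale, and 31% and 27.2% after rescaling. These shares are the background for the counts of each list below. Among 12 sugar transporters 6 were lower and 4 higher (7 and 2 after rescaling). Slc2a5, the fructose carrier GLUT5 (-1.11), Slc5a10 (-0.97) and Slc5a11 (-0.76) fell most. Slc2a3 (1.02) and Slc2a10 (0.80) were higher on both scales, at low levels. Their means went from 0.298 to 1.65 FPKM and from 0.273 to 1.22 FPKM. Slc2a1, the ubiquitous GLUT1, was 0.69 higher on the deposited scale and not called after rescaling (0.09).

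Of 17 genes by which substrates enter gluconeogenesis 8 were lower and 1 higher (13 and 0 after rescaling). Slc13a3, a dicarboxylate carrier (-1.75), Gpd1, glycerol-3-phosphate dehydrogenase (-1.75), and Slc5a8, a lactate and monocarboxylate carrier (-1.68), fell most. Among 18 shared and mitochondrial steps 11 were lower and 2 higher (15 and 0 after rescaling), the lower ones including the dicarboxylate carrier Slc25a10 (-1.34) and cytosolic malate dehydrogenase Mdh1 (-1.20). Pck2, the mitochondrial carboxykinase, went from 5.99 to 12.2 FPKM (0.90, adjusted p = 0.00133; after rescaling 0.35, adjusted p = 0.15), and Fbp2, the muscle-type bisphosphatase, was 0.54 higher on the deposited scale and at -0.03 after rescaling.

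Among 7 fructose and polyol genes 5 were lower and 1 higher (6 and 1 after rescaling). Sord, sorbitol dehydrogenase, was at 162 FPKM in CKD against 681 in control (-2.08, limma adjusted p = 7.04e-06), followed by Glyctk (-1.86) and Tkfc (-1.73). Aldh1b1, at a mean of 0.586 FPKM in control and 2.06 in CKD, was higher (0.93) on both scales. Among 16 regulators 3 were lower, among them Hnf4a, the nuclear receptor of hepatocytes and proximal tubule (-1.52, with 1 failed estimate in each group left out of the fit), and Pth1r, the parathyroid hormone receptor (-1.50). After rescaling 4 regulators were lower. On the deposited scale 7 were higher, where 54.6% of all genes tested were called higher, and after rescaling 3, where 27.2% were. Both counts were below the share over all genes. The leading ones on the deposited scale were Cebpb (1.27, not called after rescaling), Foxo3 (1.10) and Creb1 (1.07), the last of which binds cyclic AMP response elements.

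With iron none of the 68 genes passed limma's test, 9 had an unadjusted p under 0.05 and 52 differences were positive. Of all genes tested, 3.28% had an unadjusted p under 0.05 in the higher direction and 2.73% in the lower. The median difference over all genes tested was -0.000503. The lowest p belonged to Slc13a3 (0.79, adjusted p = 0.400) and Slc38a3, a glutamine carrier (0.84, adjusted p = 0.479). In the other lists the lowest included Slc5a10 (0.41) and Slc2a4 (0.39) for transporters, Slc25a10 (0.44) for shared steps, Sord (0.51) for fructose and Foxo3 (-0.28) for regulators, with adjusted p from 0.768 to 0.874. Against control the CKD+Fe mice had 31 of the 68 lower and 17 higher, where 11% of all genes tested were lower and 54.4% higher. After rescaling 41 were lower and 4 higher, where 29.3% of all genes were lower and 26.1% higher.

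**Figure D5:**
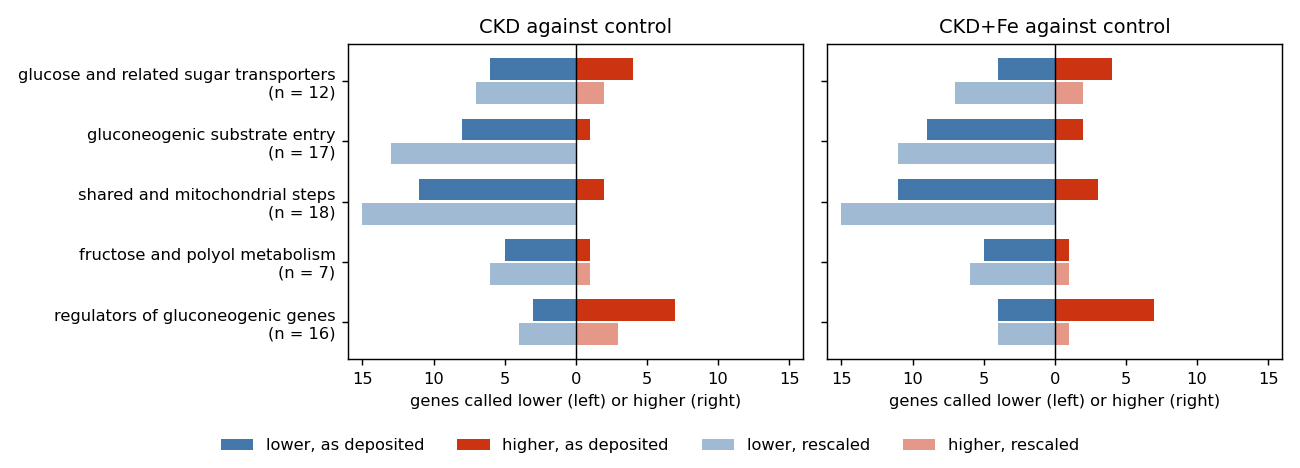
Number of genes called lower (left, blue) or higher (right, red) in each list (y axis, n tested) in CKD and CKD+Fe against control, dark for deposited values and pale after rescaling. The shared steps had 11 lower genes in both comparisons, and the higher calls became fewer after rescaling except in the fructose list.

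The genes whose pattern over the 12 mice was most like each of the 9 were found by the root-mean-square (RMS) difference of log2 values centred on their means, among 9689 genes. Slc5a1 was the farthest of the 9 from each of the other 8. Genes near it were Suz12 (0.076) and Agk (0.096), and its nearest in the set was Slc2a2 (0.677). Slc2a2 was nearest to Cubn, the endocytic receptor cubilin (0.122), then Adk and Abcg2. Khk was nearest to Ccdc107 (0.119), Mettl26 and Cideb, and Slc37a4 to Hadh (0.127).

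The RMS differences were larger for the remaining genes. They are not scaled by the spread of a gene, so genes that vary little, such as Slc5a1, tend to get small values. Fbp1 was nearest to Paqr9 (0.175), Slc26a1 and Slc6a20b, and Pcx to Upb1 (0.183), Thnsl2 and Gpd1; within the set these were each other's nearest (0.237). Slc5a2 was nearest to Sectm1b (0.276), Slc26a1 and Tcn2, and G6pc to Lrp2, the endocytic receptor megalin (0.345), Kl and Aldh6a1. Pck1 had the largest RMS difference from its nearest gene, with Slc25a42 at 0.396, Cubn at 0.402 and Acad11 at 0.409. All of these points share libraries and depth, and the values are a description.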

How the data were processed

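RNA was sequenced from whole kidney of 12 mice (3 groups of 4), with a stranded mRNA kit and single-end reads of 50 cycles. The submitters' processing notes name bcl2fastq 2.19, STAR 2.5.2, Cufflinks 2.1.1 and build GRCm38. The authors deposited FPKM values for 22053 protein-coding gene rows, with a status for each value, and 30 failed estimates in 17 genes were set to missing (none in the 9 genes). Groups came from the sample labels. The study's methods describe a count test, which FPKM values cannot enter, so limma 3.58.1 (R 4.3.3) was fitted to log2(FPKM + 1) of all 12 mice, with a variance trend, over genes that reached 1 FPKM in 4 or more mice, two-sided, with Benjamini-Hochberg adjustment over the 13148 genes tested and a threshold of 0.05. Exact permutation tests used the 70 arrangements of 4 mice against 4. The fit was tested on simulated data.

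The 9 genes, pathway lists and markers were chosen with earlier results of these data known. All 9 genes are given in every mouse. Of each pathway list, up to 3 rises and 3 falls of largest size among genes called in CKD against control were named, with the 2 lowest p for iron and, for each of the 9 genes, the 3 most like genes with a mean of at least 5 FPKM. Alternatives were a pseudocount of 0.1, a mean of at least 5 FPKM, no filter, no variance trend, median-of-ratios or quantile scaling, array weights, only the groups compared, leaving out each mouse, and an adjusted p under 0.5. A median-of-ratios factor divides each mouse by the median ratio of its genes to their geometric means. Results that need some of the genes and motifs in these lists are not reported here.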

Additional observations from a re-analysis of the deposited data

Results flagged for a closer look

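Of 27 sets of 4 values (9 genes in 3 groups), 2 had a lowest mouse standing apart from the rest by more than Dixon's 95% critical value, where chance alone marks about 1 in 20. For Pcx in CKD the gap took up 0.858 of the range, with CKD mouse 2 at 19.8 FPKM and the other mice at 37.8 to 40.8 FPKM. For Fbp1 in control it took up 0.844 of the range, with control mouse 3 at 518 FPKM and the others at 811 to 865 FPKM. Without that mouse each of the 2 genes was still called lower in CKD.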

How the results depend on the processing

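The count of lower genes in CKD against control (8) and in CKD+Fe against control (7) stayed within 1.5 times of itself under all 18 alternatives of each. The difference of Slc5a1 changed sign after median-of-ratios rescaling, to -0.20 in CKD and -0.30 in CKD+Fe against control, and with quantile normalization to -0.048 in CKD+Fe against control. Pck1 in CKD and Slc2a2 in CKD+Fe against control each lost the call with quantile normalization and on leaving out any of several single mice. In CKD+Fe against CKD, Slc5a2 ranged on leaving out 1 mouse from -0.10 (without CKD+Fe mouse 2) to 0.59 (without CKD+Fe mouse 1), was -0.06 without CKD+Fe mouse 3, and reached 0.68 without the farthest mouse of each group. Between CKD+Fe and CKD the 9 genes had 1 call, Khk, with array weights and 1 without the farthest mouse of each group, and 0 otherwise. The pathway lists had 2 calls with array weights and 2 without the farthest mice (Slc38a3 and Slc13a3 in each), 2 at an adjusted p under 0.5, and 0 to 1 on leaving out 1 mouse, the 1 being Slc38a3 without CKD+Fe mouse 1. G6pc in CKD+Fe against control lost its call with quantile normalization (-1.21, adjusted p = 0.0694). The cause of these changes was not tested. No paired analysis was possible because the labels give the groups no shared replicate numbers. FPKM hold no counts, so depth limits could not be stated, and 4 mice against 4 cannot give an exact p below 0.0286.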
